A study of Rattus norvegicus with 66 samples.

Results

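The comparison described here set 5 female (XX) Long Evans rat pups exposed to the high dose of the polychlorinated biphenyl (PCB) mixture Aroclor 1254 (group Aro5) against the 10 XX control pups of the same study, 15 of its 64 pups, across every expressed gene. RNA of the dorsal hippocampus, which per the study's methods carried a small piece of the laterally adjacent neocortex, was sequenced on postnatal day 6. Aro5 dams took Aroclor 1254 at 5 mg/kg body weight in chow from before mating through pregnancy and lactation, so that pups were still exposed when the tissue was taken. The controls were 5 pups of dams on soy-free chow (CONF) and 5 pups of dams injected subcutaneously with vehicle (CONSC), and neither had any of the compounds. The Aro5 pups 115-13x and 115-7x were from the same litter, and pups 116-1x, 117-6x and 120-3x from a litter each. All 10 controls came from different litters. Pups are named here by litter and pup number.

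Read totals were 15405133 to 47849893 counts over the 15 pups, and of 37777 listed genes 16992 passed the filter on low counts. Levels below are CPM, counts divided by library size, scaled with the trimmed mean of M values (TMM), differences are log2 fold changes of Aro5 minus control, and each is given with its standard error (SE). CPM is not divided by gene length, so levels of different genes were not compared. The tissue carried hippocampal genes in every pup: Prox1, the transcription factor of dentate granule cells, had a mean of 96.2 CPM ± 14.5 (SD, n = 10) in controls and 94.2 ± 18.5 (SD, n = 5) in Aro5. The 14 hippocampal subfield markers tested summed to 378 to 518 CPM in controls and to 425 to 535 CPM in Aro5. In bulk tissue, fewer cells of a type and less RNA per cell cannot be told apart.

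PCB mixtures are known to act through several routes. Dioxin-like congeners bind the aryl hydrocarbon receptor, which pairs with Arnt and switches on the Cyp1 genes through promoter elements with the core GCGTG. Non-dioxin-like congeners activate the xenobiotic receptors CAR and PXR and sensitise ryanodine receptors, the calcium release channels of the endoplasmic reticulum. PCBs also lower circulating thyroid hormone, on which myelination, interneuron maturation and granule cell production in the perinatal hippocampus depend.

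Aro5 and control XX pups differed little at the level of single genes. In the edgeR quasi-likelihood fit, 0 of 16992 genes (0.0%) reached an adjusted p under 0.05, with p adjusted over all genes after Benjamini and Hochberg. At an unadjusted p under 0.05 there were 548 genes (3.23%), 261 higher (1.54%) and 287 lower (1.69%) in Aro5. DESeq2 on the same 23 XX pups gave 0 genes, and on these 15 pups alone it gave 1, LOC688430, at an adjusted p of 0.0179. The median over all genes was 0.00 (log2). In counts simulated from these libraries, 93% of 200 genes changed by 2-fold and 70% of 200 changed by 1.5-fold were recovered. The changed genes were drawn only from those with a mean of at least 1 CPM. The simulated controls shared a single mean per gene, with no differing sets of libraries and no litters, so recovery in the real data may differ.

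How large a difference the data leave room for depended on the level of the gene. Of 10207 genes with a mean of at least 10 CPM, 97.2% had a 95% confidence interval lying wholly within 1.5-fold of no change and 99.8% within 2-fold. Among the 4485 genes at 1 to 10 CPM these shares were 74.0% and 96.4%. Among the 2300 genes under 1 CPM they were 12.3% and 71.0%, and 37 of the 45 estimates beyond 2-fold were in this lowest class.

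**Figure D1:**
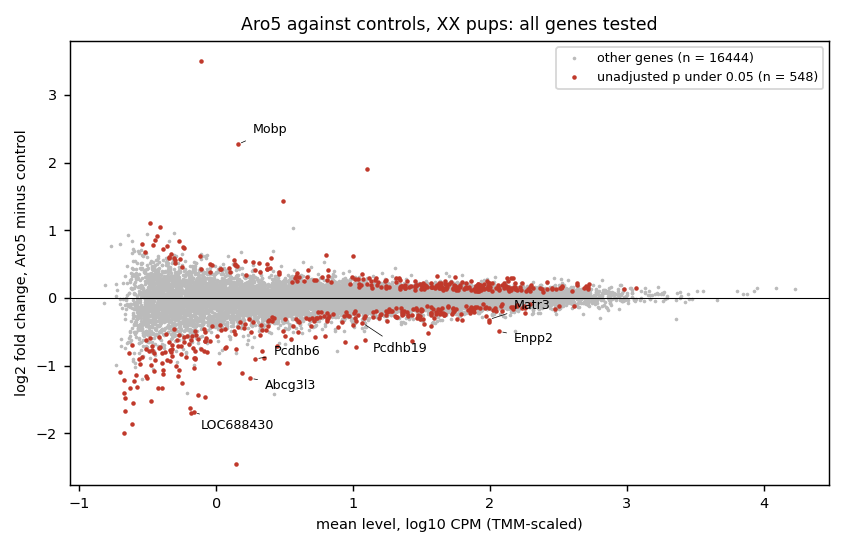
Log2 fold change (Aro5 minus control, y axis) against mean level (log10 CPM, x axis) for the 16992 genes tested in XX pups. Red points are the 548 genes with an unadjusted p under 0.05, of which none reached an adjusted p under 0.05, and the spread of estimates narrows as the level rises.

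The 8 genes with a mean of at least 1 CPM and an estimate beyond 2-fold were singled out after their values were seen. Pmch, which encodes the precursor of melanin-concentrating hormone, a peptide of hypothalamic neurons, was at 20.1 CPM in the control N2-4x, at no more than 1.23 in the other controls and at 0.304 to 0.598 in Aro5. C3, the central complement component, was at 25.6 CPM in the control N4-3x, at no more than 1.96 in the other controls and at 0.608 to 2.11 in Aro5. In both genes a single control pup therefore carried the group difference, and the other controls overlapped with the Aro5 pups. Mobp, a gene of compact myelin, showed the same pattern on the Aro5 side, with 10.1 CPM in pup 117-6x, 0.239 to 0.911 in the other 4 and 0 to 1.39 in controls. Without pup 117-6x the Mobp estimate went from 2.27 to 0.07.

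Bc1, a brain RNA made by RNA polymerase III and found in dendrites, was at 6.81, 4.46, 4.70 and 6.23 CPM in Aro5 pups 115-13x, 115-7x, 116-1x and 117-6x, but at 0.0304 in 120-3x, against 0.177 to 3.71 in controls. It was above every control in 4 Aro5 pups and below every control in the remaining one. The Bc1 estimate was 1.44 in Aro5. Against the same controls it was 1.44 and 1.71 in the other high-dose XX groups, bisphenol A (BPA5) and chlorpyrifos (CPF3). LOC680107 varied widely among controls, at 0.315 to 0.977 CPM in 6 of them and 10.4 to 14.5 in the other 4. It was at 25.1, 22.2, 10.9, 12.0 and 30.4 in the Aro5 pups. Its estimate was 1.9 (SE 0.81, adjusted p = 0.999 by edgeR), beside -0.44 in BPA5 and 0.04 in CPF3. Rn28s, the 28S ribosomal RNA, was at 1.67 to 12.6 CPM in Aro5 and 0.531 to 7.87 in controls. The remaining members of this set, Abcg3l3 and LOC688682, had lower estimates in Aro5, and that of LOC688682 was -1.11 (SE 0.30) with all controls and -0.26 (SE 0.20) against form B controls alone. With all controls LOC688682 was at -1.18 in BPA5 and -0.74 in CPF3, and Abcg3l3 at -0.33 and -0.44.

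The control libraries were not uniform, and this touched the comparison. The XX control libraries carry names of 2 written forms, with a separating low line after the group (form A: N2-4x, 11-3x, 13-8x, 9-1x) or without it (form B: N1-8x, N3-1x, N8-1x, 8-2x, 6-7x), while pup N4-3x has a library of each form, which were summed. Pups N2-4x, N1-8x, N3-1x, N8-1x and N4-3x are CONF and the others CONSC. Form A thus holds more CONSC than CONF pups and form B more CONF, so name form and control type cannot be fully told apart. Between the forms 237 of 16577 genes (1.43%) differed at an adjusted p under 0.05 in the edgeR fit. In this test the libraries of N4-3x were not summed but counted separately, one in each form, and their pairing was not modelled. The titles of the Aro5 libraries carry the low line. So do those of the XY Aro5 libraries, which are read as form B from another letter of their titles (below). The low line was therefore not used to assign the Aro5 libraries to a form. On a scale over 236 of these genes where 0 is the form A mean and 1 the form B mean, the Aro5 pups lay at 0.889, 0.812, 0.923, 1.15 and 0.906, form A pups at -0.16 to 0.112, N4-3x at 0.583 and form B pups at 0.824 to 1.1. The Aro5 pups thus lay among the form B controls and apart from the form A controls on these genes. The genes were chosen by the difference between these same controls, so the gap between form A and form B controls follows from that choice. Aro5 pups were not used to choose them.

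**Figure D2:**
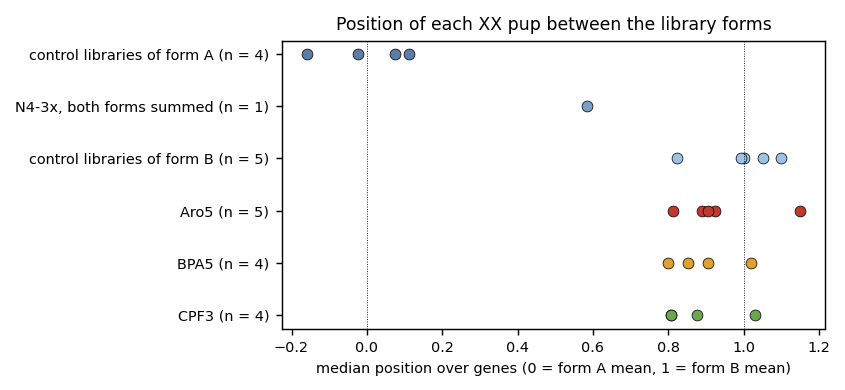
Median position of each XX pup over 236 genes that differed between control libraries of the 2 name forms (x axis, 0 = form A mean, 1 = form B mean), 1 point per pup and a row per group. Form A controls lie at -0.16 to 0.112, while the 5 Aro5 pups lie at 0.812 to 1.15, beside form B controls.

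Against form A controls alone, 119 of 16938 genes (0.703%) passed an adjusted p under 0.05 in the same edgeR test, 41 higher and 78 lower, 47 of them with predicted or numbered symbols. Against form B controls alone, 0 of 16604 genes (0.0%) passed, with 523 (3.15%) at an unadjusted p under 0.05. Each of these fits also included the N4-3x library of that form. The form and the groups cannot be fully told apart, so estimates from form B controls alone are given beside results below. Of the 48 named genes with an unadjusted p under 0.05 with all controls, 45 were tested against form B controls alone, where 23 had an unadjusted p under 0.05 in the same direction and 2 had an estimate of the other sign. Bc1, described above and not among these named genes, also differed between the forms. It was at 0.177 to 0.496 CPM in the form A controls and at 1.82 to 3.71 in the form B controls.

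Among genes with lower estimates in Aro5, a clustered protocadherin had the smallest p. Protocadherins of the beta cluster are cell-surface adhesion proteins that neurons express in combinations and that help cells tell self from non-self. Pcdhb19 was at 9.88, 9.68, 10.0, 10.3 and 11.0 CPM in the Aro5 pups 115-13x, 115-7x, 116-1x, 117-6x and 120-3x, against a lowest, median and highest of 10.8, 13.4 and 15.1 in controls. Only 120-3x reached the lowest control, N4-3x. The difference was -0.37 (SE 0.07, unadjusted p = 4.09e-05, adjusted p = 0.695 by edgeR), and -0.29 (SE 0.08) against form B controls alone. It was not particular to Aro5: against the same controls Pcdhb19 had estimates of -0.25 in BPA5 and -0.34 in CPF3, the other high-dose XX groups.

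Pcdhb6, of the same cluster, was at 1.63, 1.12, 1.33, 1.52 and 1.15 CPM in Aro5 against 1.43, 2.26 and 4.13 (lowest, median and highest) in controls. Its difference was -0.90 (SE 0.24), and 2 of the Aro5 pups overlapped with the control range. Against the same controls the Pcdhb6 estimate was -0.37 in BPA5 and -0.55 in CPF3. The family was then counted as a whole, a choice made after these values were seen. Of the 17 Pcdhb genes tested, 13 had lower and 4 higher estimates, and Pcdhb6, Pcdhb9, Pcdhb14 and Pcdhb19 were lower at an unadjusted p under 0.05, beside 1.69% of all genes. The median over the family was -0.10, beside -0.02 in BPA5 and -0.09 in CPF3. Its summed level was 103 to 111 CPM in Aro5, inside the control range of 101 to 125. In the neighbouring families the median was -0.04 over 15 Pcdha entries, which share exons and had almost the same value. It was 0.08 over 16 Pcdhg entries, most of which also had nearly the same level and estimate. Neither median therefore stands for a set of separate genes. Pcdhg entries with other levels were Pcdhgb5 at -0.18 (SE 0.12), Pcdhga4 at 0.07 (SE 0.14) and Pcdhgc5 at 0.15 (SE 0.07).

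Abcg3l3, an ABC transporter gene, was at 0.717, 1.12, 0.684, 1.95 and 0.971 CPM in Aro5, against 1.07, 2.42 and 4.05 (lowest, median and highest) in controls. Aro5 pups 115-7x and 117-6x overlapped with controls. The estimate was -1.19 (SE 0.28), a level lower by more than 2-fold, and -1.06 (SE 0.31) against form B controls. LOC688430 was at 0.253 to 0.395 CPM in Aro5 and 0.349 to 1.92 in controls, an estimate of -1.69 (SE 0.40), and it is the gene that DESeq2 called on these pups. No function is given for it here.

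Matr3, a nuclear matrix protein that binds RNA, was at 78.3, 99.0, 90.1, 86.6 and 80.9 CPM in Aro5, against 85.4, 113 and 118 (lowest, median and highest) in controls. Every Aro5 pup lay under the control median, with 3 of them inside the control range. The estimate was -0.32 (SE 0.09), and -0.31 (SE 0.11) against form B controls. Gmps, which makes guanosine monophosphate in purine synthesis, was at 20.4 to 22.4 CPM in Aro5 and 21.3 to 28.7 in controls (-0.23, SE 0.07). Rnf138, an E3 ubiquitin ligase, was at 25.5 to 33.0 CPM in Aro5 and 26.0 to 45.3 in controls (-0.32, SE 0.10). Its estimate against form B controls was smaller, at -0.19 (SE 0.09).

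The other named genes with lower estimates differed by small amounts. They were Lims1, an adaptor of integrin adhesions, Kdm1b, a histone demethylase, Rgs10, a regulator of G protein signalling, Brox, Elf1, a transcription factor of the ETS family, and Slfn5. Their estimates ran from -0.30 for Elf1 to -0.17 for Brox. All 12 named genes with lower estimates had an adjusted p of 0.695 or above in the edgeR test.

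Named genes with higher estimates also differed by small amounts. Hsf1, the master transcription factor of the heat shock response, was at 46.9, 46.6, 49.4, 44.0 and 47.3 CPM in Aro5, against 35.1, 40.1 and 46.0 (lowest, median and highest) in controls. In all but 117-6x the level was above every control. The estimate was 0.22 (SE 0.07), and 0.13 (SE 0.07, unadjusted p = 0.0808) against form B controls alone in the edgeR fit. Steap3, an endosomal iron reductase, was at 6.20 to 8.04 CPM in Aro5 and 4.78 to 6.37 in controls (0.32, SE 0.10). Wdr77, a partner of the arginine methyltransferase Prmt5, was at 3.90 to 4.43 CPM against 2.68 to 4.03 (0.33, SE 0.11).

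Pomt1, which starts the O-mannosylation of dystroglycan, was at 26.7 to 29.7 CPM in Aro5 and 22.6 to 26.7 in controls (0.18, SE 0.06). Chst11, a chondroitin sulfotransferase of the extracellular matrix, was at 88.2 to 97.8 CPM against 70.4 to 91.5 (0.19, SE 0.06). Vangl2, a core planar cell polarity protein, was at 74.8 to 96.9 CPM against 63.8 to 86.7 (0.20, SE 0.07). Against form B controls alone the estimates were 0.13 for Pomt1, 0.17 for Chst11 and 0.13 for Vangl2, and among these Chst11 alone had an unadjusted p under 0.05. Groups overlapped in each of these genes, and the remaining ones, Def6, Zfp710, Pianp, Sidt2 and Pigq, had estimates of 0.16 to 0.48.

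**Figure D3:**
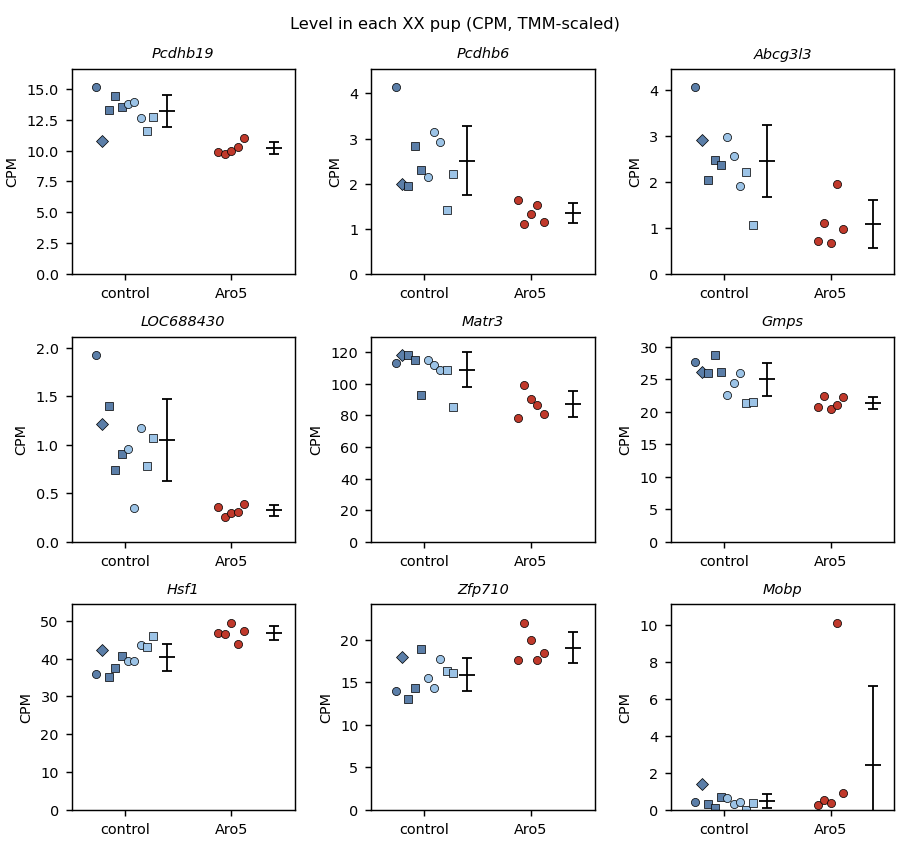
Level (CPM, y axis) in each XX pup for genes with the smallest unadjusted p in either direction. Circles are CONF and squares CONSC controls, the diamond is N4-3x, dark blue is library name form A and light blue form B, red points are Aro5, and the bars give mean ± SD. In Mobp 1 Aro5 pup stands at 10.1 CPM, and in Pcdhb19 the Aro5 pups lie at 9.68 to 11.0 CPM.

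Complete separation of the groups was rare. In 5 genes (0.0294%) no Aro5 value overlapped with a control value, 4 above (0.0235%) and 1 below (0.00589%). Cacnb1, a beta subunit of voltage-gated calcium channels, was at 132 to 148 CPM in Aro5 and 111 to 132 in controls (0.17, SE 0.06). Mpp2, a scaffold protein of the postsynaptic density, was at 110 to 115 CPM against 81.3 to 109. Tmem175, a lysosomal potassium channel, was at 37.2 to 39.7 CPM against 30.1 to 36.0. Cdr2l was at 61.3 to 68.0 CPM against 48.2 to 61.3, and Senp5, a SUMO protease, at 0.470 to 0.819 against 0.831 to 1.28. The gaps were narrow, and with CPM from library totals without TMM 3 genes separated, of which 1 was among these 5.

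The genes through which PCBs are known to act gave no difference past the threshold. In the aryl hydrocarbon receptor pathway 0 of 12 genes tested had an unadjusted p under 0.05, beside 3.23% of all genes, and the median was -0.07. Cyp1b1, the receptor's target among P450 monooxygenases that is expressed in brain vessels, was at 2.83, 3.40, 1.84, 4.56 and 5.83 CPM in Aro5, against 1.02, 3.93 and 6.05 (lowest, median and highest) in controls. The groups overlapped over nearly their whole range. The difference was -0.03 (SE 0.29), with a 95% interval of -0.62 to 0.55, which reaches about 1.5-fold on either side, and it was -0.21 (SE 0.26) against form B controls. Cyp1a1, the classic marker of receptor activation, had 0 to 3 counts in Aro5 and 1 to 6 in controls, and Cyp1a2 had 0 to 1 and 0, so that neither passed the filter of the edgeR fit. DESeq2 gave Cyp1a1 an estimate of -0.16 (SE 0.66).

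Ahr itself was at 1.99, 2.33, 2.86, 3.90 and 2.94 CPM in Aro5, against 1.23, 2.98 and 5.58 (lowest, median and highest) in controls (-0.33, SE 0.29). All Aro5 values lay inside the control range. Its partner Arnt differed by 0.12 (SE 0.08), Ahrr, the repressor that the receptor induces, by 0.11 (SE 0.36), and Tiparp, an ADP-ribosyltransferase also induced by it, by -0.15 (SE 0.10). Nqo1, a quinone reductase, and Aldh3a1 had estimates of -0.19 (SE 0.14) and -0.45 (SE 0.34). Against form A controls alone, Ptges3, Tiparp and Nqo1 were lower and Arnt higher at an unadjusted p under 0.05, and against form B controls alone Ahr was lower, at -0.66 (SE 0.29).

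The promoters of 3 receptor targets with a measurable level are shown because they carry the core to which the activated receptor binds, while their transcripts did not separate Aro5 from control pups. Each window runs from 250 bases before to 50 after the gene start, 5′ to 3′ on the plus strand of the gene in RefSeq's GRCr8 assembly, at chr6:21094315-21094614 for Cyp1b1, chr1:30821969-30822268 for Ahrr and chr2:152063519-152063818 for Tiparp. Capitals mark GCGTG on either strand, CACGC being the reverse complement.
Cyp1b1: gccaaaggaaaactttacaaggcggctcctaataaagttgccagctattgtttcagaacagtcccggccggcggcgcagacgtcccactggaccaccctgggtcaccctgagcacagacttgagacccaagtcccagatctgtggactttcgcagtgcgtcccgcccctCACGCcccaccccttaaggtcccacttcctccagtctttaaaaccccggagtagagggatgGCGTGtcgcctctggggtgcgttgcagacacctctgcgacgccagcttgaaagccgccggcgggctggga
Ahrr: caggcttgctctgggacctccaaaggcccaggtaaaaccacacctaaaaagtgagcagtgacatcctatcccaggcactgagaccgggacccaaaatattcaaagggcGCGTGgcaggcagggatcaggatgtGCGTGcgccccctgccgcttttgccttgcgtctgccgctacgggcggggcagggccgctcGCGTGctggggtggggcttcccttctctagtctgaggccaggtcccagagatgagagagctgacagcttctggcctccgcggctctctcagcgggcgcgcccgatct
Tiparp: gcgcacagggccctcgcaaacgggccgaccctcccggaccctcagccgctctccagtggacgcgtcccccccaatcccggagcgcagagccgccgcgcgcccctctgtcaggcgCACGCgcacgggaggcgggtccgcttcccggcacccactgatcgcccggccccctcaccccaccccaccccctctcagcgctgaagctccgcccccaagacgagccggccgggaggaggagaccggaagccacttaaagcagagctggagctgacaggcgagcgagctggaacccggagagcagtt
The 300-base windows hold 2, 3 and 1 cores. The core was found in 8 of the 11 pathway promoters with an entry and in 29.7% of all 33469 promoters of this length. It was also in 8 of 10 promoters of the thyroid hormone responsive genes described below, so its share was not particular to the pathway. Among the named genes it was in 2 of 9 promoters of those with higher and 7 of 12 of those with lower estimates. These matches describe letters in the window and are not mapped binding sites.

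In the CAR and PXR pathway 0 of 10 genes tested had an unadjusted p under 0.05 (median -0.10). Por, the reductase that feeds electrons to P450 enzymes, differed by 0.09 (SE 0.07), Abcb1a, the efflux pump P-glycoprotein, by -0.08 (SE 0.11), and Gsta1, a glutathione transferase, by -0.44 (SE 0.27). The target Cyp2b1 had at most 1 count in any of the 15 pups and Cyp3a2 had 0. These enzymes are chiefly products of the liver.

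The thyroid hormone axis gave a similar picture. Among 15 genes for receptors, transporters and deiodinases 0 had an unadjusted p under 0.05 (median -0.02). Thra, the main receptor of neurons, differed by 0.04 (SE 0.07), with an interval of -0.10 to 0.19, and Thrb by 0.02 (SE 0.21). Dio2, the deiodinase that makes the active hormone in brain, was at 3.31, 3.65, 4.15, 6.27 and 5.10 CPM in Aro5 against 1.81, 4.48 and 6.90 (lowest, median and highest) in controls, a difference of -0.02 (SE 0.25), and of -0.32 (SE 0.22) against form B controls. Dio3, which inactivates the hormone, ranged from 0.0779 to 1.37 CPM in Aro5 and from 0.144 to 3.73 in controls, and its estimate of -0.41 (SE 0.71) became 0.38 without the control 9-1x and 0.23 against form B controls.

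Of 15 genes that respond to thyroid hormone, 10 had higher and 5 lower estimates (median 0.04). Hr, a corepressor induced directly by the hormone, was at 33.0, 38.3, 45.4, 54.2 and 56.0 CPM in Aro5 against 21.5, 38.9 and 70.2 (lowest, median and highest) in controls. Its estimate of 0.16 (SE 0.20) was 0.53 against form A and -0.07 against form B controls. Klf9, a hormone-induced transcription factor of differentiating neurons, likewise had 0.07 (SE 0.24), 0.39 and -0.27. The list median was 0.17 against form A controls and -0.10 against form B controls, and it was -0.11 without the Aro5 pup 117-6x and -0.01 without the control 9-1x, so its sign rested on which libraries were used. The only member with an unadjusted p under 0.05 was Enpp2.

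Enpp2 encodes autotaxin, which makes lysophosphatidic acid and is made by the choroid plexus as well as by oligodendrocytes. It was at 68.4, 120, 113, 76.7 and 107 CPM in Aro5, against 106, 132 and 208 (lowest, median and highest) in controls. The Aro5 pups 115-13x and 117-6x lay below every control and the others at the lower end of the control range. The difference was -0.49 (SE 0.19, unadjusted p = 0.0145, adjusted p = 0.999 by edgeR), and -0.31 (SE 0.19) against form B controls.

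Markers of the choroid plexus, the secretory epithelium of the ventricle next to the hippocampus, are given beside it. The marker list holds Enpp2 itself, so it is given here without it. All 10 other markers tested had lower estimates, 0 of them with an unadjusted p under 0.05, and the median was -0.31, or -0.16 without Aro5 pup 117-6x, -0.20 without 115-13x, -0.21 without control 9-1x and -0.47 without 115-7x. Among them were the thyroxine carrier Ttr (-0.32, SE 0.30), the folate receptor Folr1 (-0.31, SE 0.26) and the water channel Aqp1 (-0.28, SE 0.28). Their summed level was 1430, 3130, 3000 and 1230 CPM in Aro5 pups 115-13x, 115-7x, 116-1x and 117-6x and 2260 in 120-3x, against 1660 to 4580 in controls. Pups 115-13x and 117-6x lay below every control, and the other 3 inside the control range. The pups with the lowest sums, 115-13x and 117-6x, are those with the lowest Enpp2. Otx2, the factor that defines this epithelium, had 0 to 1 counts. With Enpp2 included, the list median against the same controls was -0.311 in Aro5, -0.542 in BPA5 and 0.018 in CPF3, so a lower median was not particular to Aro5. The part of choroid plexus tissue in the Enpp2 difference was not tested.

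**Figure D4:**
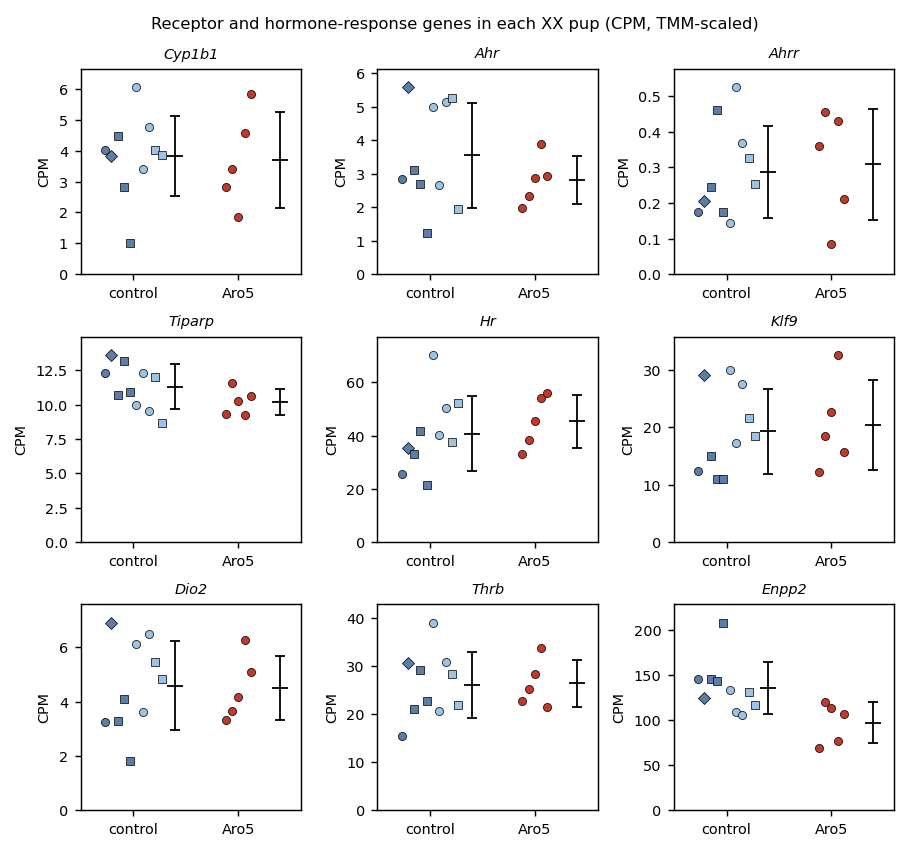
Level (CPM, y axis) in each XX pup for genes of the aryl hydrocarbon receptor pathway, the thyroid hormone axis and Enpp2. Circles are CONF and squares CONSC controls, the diamond is N4-3x, dark blue is library name form A and light blue form B, red points are Aro5, and the bars give mean ± SD. Aro5 points lie inside the control range in most panels, and for Enpp2 a pair of Aro5 pups at 68.4 and 76.7 CPM lies below all controls.

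Of 19 calcium release channels and their partners 0 had an unadjusted p under 0.05 (median 0.01), and all 19 intervals lay within 2-fold of no change. Against form B controls alone Ryr2 (-0.34, SE 0.14), Itpr1 and Cacna1c were lower at an unadjusted p under 0.05. The ryanodine receptors themselves differed by 0.13 (Ryr1, SE 0.16), -0.10 (Ryr2, SE 0.19) and -0.10 (Ryr3, SE 0.12). Ryr2 was at 51.2, 57.3, 63.4, 83.0 and 64.8 CPM in Aro5 and at 27.8, 67.9 and 98.9 (lowest, median and highest) in controls. The junctophilins Jph3 and Jph4, which hold the release channels near the plasma membrane, had the smallest p of the list, with estimates of 0.14 (SE 0.08) and 0.11 (SE 0.06).

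The study's interest in developmental transcription factors was followed with a list of its 18 genes, of which 16 were tested, and since the study chose them on XY pups of this same series the list is not independent evidence. Estimates were higher in 8 and lower in 8, 0 had an unadjusted p under 0.05, and the median was -0.02. Against form B controls alone 2 were higher and 14 lower, with a median of -0.225 and with Erbb4 (-0.62, SE 0.24) and Epha4 lower at an unadjusted p under 0.05, and against CONF controls alone 3 were higher and 13 lower, with a median of -0.19. Against form A controls alone the median was 0.07. Sox6, a factor of interneuron and oligodendrocyte maturation, was at 11.8 to 17.7 CPM in Aro5 and 11.3 to 22.9 in controls (-0.09, SE 0.18). Erbb4, the neuregulin receptor of interneurons, was at 3.35 to 5.42 CPM against 2.60 to 9.25 (-0.33, SE 0.26). Pvalb, the calcium buffer of fast-spiking interneurons, was at 5.52 to 9.16 CPM against 2.48 to 12.4 (0.19, SE 0.31), and of the 15 interneuron genes tested 0 had an unadjusted p under 0.05.

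Receptors for steroids and the enzymes that make steroids (15 tested), the Nrf2 antioxidant genes (14), immediate early genes (20), circadian clock genes (17), ionotropic glutamate receptors (15), neural progenitor genes (17), cell division genes (20) and cholesterol genes (19) likewise had 0 members with an unadjusted p under 0.05. Their medians ran from -0.06 for cell division to 0.03 for steroids. The cell division median was 0.03 against form B controls alone. Esr1, the estrogen receptor alpha, differed by 0.16 (SE 0.17), and Esr2 was below the filter. Fos differed by -0.40 (SE 0.24).

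Synaptic vesicle genes had higher estimates in 17 of 18 members, with a median of 0.11. Against form B controls the median was 0.01, while against form A controls it was 0.24. Without pup 117-6x the median was 0.02, with 12 of 18 estimates higher.

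Among GABA-A receptors and chloride transporters, Slc12a2, the chloride importer that keeps GABA depolarising in immature neurons, was at 43.9, 58.9, 52.1, 52.3 and 49.5 CPM in Aro5 against 52.4, 57.1 and 68.8 (lowest, median and highest) in controls. In 4 of the 5 Aro5 pups the level was below every control. The estimate was -0.19 (SE 0.08, unadjusted p = 0.0259, adjusted p = 0.999 by edgeR), and -0.22 (SE 0.09) against form B controls. Slc12a5, the exporter that replaces it as neurons mature, differed by 0.10 (SE 0.11). The 16 genes of this list had a median of -0.03.

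The cell type lists were close to no difference. Of 17 oligodendrocyte markers 13 had higher estimates (median 0.06), and Mobp alone passed an unadjusted p under 0.05. In pup 117-6x, where Mobp was at 10.1 CPM, some other myelin genes were also above every control but only slightly: Mbp, the myelin basic protein, was at 215 CPM against a control maximum of 194, Mag at 27.6 against 24.3 and Mog at 2.26 against 1.79. The remaining list members named here, Cnp, Ugt8, Cldn11, Bcas1, Myrf, Gpr17, Enpp6, Sox10, Pdgfra and Cspg4 and the early lineage factors Olig1 and Olig2, were inside the control range in that pup. Among astrocyte markers Ntsr2 was higher at an unadjusted p under 0.05 (0.36, SE 0.15), with 13 tested and a median of 0.02. Ntsr2 was also past that threshold against form B or CONF controls alone. No astrocyte marker was past it without pup 117-6x, or against form A or CONSC controls alone. The medians were 0.05 over 13 microglia markers, -0.07 over 11 endothelial markers, all of which had lower estimates, and -0.05 over 10 meningeal and vascular wall markers, of which Dcn, a matrix proteoglycan of fibroblasts, was lower (-0.34, SE 0.12) at an unadjusted p under 0.05, but not against form B controls alone (-0.25, SE 0.13).

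**Figure D5:**
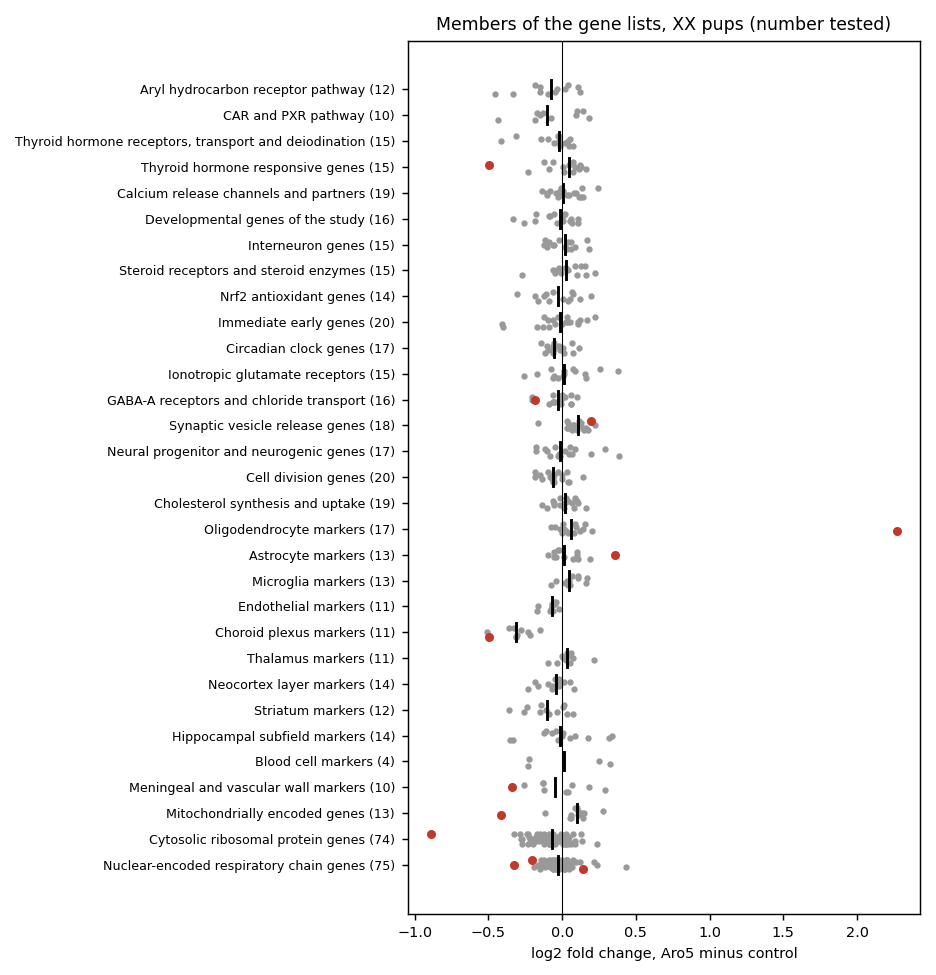
Estimates (log2 fold change, Aro5 minus control, x axis) of every tested member of the gene lists, 1 row per list, with the list median marked by a bar and members at an unadjusted p under 0.05 in red. Most members lie near 0, with the choroid plexus row shifted to a median of -0.31 and the Mobp point at 2.27 in the oligodendrocyte row.

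Markers of tissue next to the hippocampus varied widely between pups. Striatum markers summed to 163 to 853 CPM in Aro5 and to 239 to 1640 in controls, and their median was -0.10 with all controls and 0.28 without 9-1x, the control at 1640. Pup 9-1x also had the highest choroid plexus sum, 4790 CPM with Enpp2, and the lowest subfield marker sum, 378. Thalamus markers (median 0.03, 11 tested) and neocortex layer markers (median -0.04, 14 tested) had no member with an unadjusted p under 0.05.

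Genes of the translation and respiration machinery depended on the control libraries. Cytosolic ribosomal protein genes had a median of -0.07 over 74 tested, with 52 estimates lower. The median was -0.17 with 27 members at an unadjusted p under 0.05 lower against form A controls, and 0.06 with 0 against form B controls. By control type it was 0.031 against CONF controls, with 1 member lower at that threshold, and -0.155 against CONSC controls, with 21. Rps4x, a ribosomal protein gene, went from -0.89 (SE 0.30) with all controls to 0.10 (SE 0.22) with form B controls. Mitochondrially encoded ND6, a complex I subunit, went from -0.42 (SE 0.19) to 0.11 (SE 0.15), and the 13 mitochondrial genes had a median of 0.10. Among 75 nuclear-encoded respiratory chain genes Ndufa11 was higher (0.14, SE 0.07) and Atp5i (-0.21, SE 0.10) and Uqcr10 (-0.32, SE 0.14) lower at an unadjusted p under 0.05. Against form B controls alone none of the 3 was, with unadjusted p of 0.344, 0.801 and 0.985 in the edgeR fit, and 64 of the 75 genes had higher estimates, beside 27 with all controls. Estimates were higher in 47 of these genes against CONF controls and in 16 against CONSC controls. The parts of name form and control type were not tested.

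Aro5 was also compared directly with the other high-dose XX groups. Their library titles carry the low line too, and were likewise not assigned to a form. On the scale of form positions BPA5 pups lay at 0.799 to 1.02 and CPF3 pups at 0.806 to 1.03, as Aro5 pups did, beside form B controls. Against 4 XX pups of dams on bisphenol A at 5 mg/kg in chow (BPA5), 0 of 16992 genes (0.0%) passed in the edgeR quasi-likelihood fit, with 376 (2.21%) at an unadjusted p under 0.05. DESeq2 also gave 0. With only Aro5 and BPA5 pups in the edgeR fit, 649 of 16386 genes had an unadjusted p under 0.05. Sla2, an adaptor of lymphocyte receptor signalling, had the smallest p among named genes, at 1.21 to 2.86 CPM in Aro5 against 0.459 to 1.03 in BPA5, with controls at 0.846 to 2.71. The Aro5 range was that of the controls, and the difference from BPA5 was 1.63 (SE 0.35). Gapvd1, a regulator of endocytosis, was at 67.1 to 112 CPM in Aro5 against 113 to 123 in BPA5, with controls at 67.5 to 119 (-0.44, SE 0.14).

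Against 4 XX pups of dams injected with chlorpyrifos at 3 mg/kg (CPF3), 0 genes (0.0%) passed in the same edgeR test and in DESeq2. At an unadjusted p under 0.05 there were 1411 genes (8.3%). This count depended on the fit: with only Aro5 and CPF3 pups it was 821 of 16255 genes. Leaving out single Aro5 pups gave 1040 to 1395. Among the named genes with the smallest p, Stil, needed for centriole duplication, was at 6.31 to 7.60 CPM in Aro5 against 7.94 to 14.7 in CPF3, with controls at 6.82 to 8.74 (-0.64, SE 0.14). Hjurp, which loads the centromeric histone, differed by -0.47 (SE 0.12) and Foxm1, a transcription factor of the G2 phase genes, by -0.39 (SE 0.10), and in all 3 genes the Aro5 range overlapped with that of the controls. Higher in Aro5 than in CPF3 at an unadjusted p under 0.05 were 4 of 13 microglia markers (Aif1, Cx3cr1, P2ry12 and Itgam) and 4 of 17 oligodendrocyte markers (Mbp, Mag, Mog and Mobp), beside 3.81% of all genes. Lower were 5 of 17 clock genes (Per1, Per2, Cry1, Nr1d2 and Ciart), beside 4.49%. The adjusted p was 0.580 or above for all of these in the edgeR test. Against controls the median over microglia markers was 0.05 in Aro5 and -0.155 in CPF3. It was 0.058 and -0.163 over oligodendrocyte markers, and -0.058 and 0.154 over clock genes. The 4 oligodendrocyte genes were all above every control in Aro5 pup 117-6x, as described above. Route of dosing differed between Aro5 and CPF3, and the part of it was not tested.

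The response of XX pups was set against that of XY pups in a fit of 52 pups of both sexes. The difference between the sexes had an adjusted p under 0.05 in 17 of 17282 genes (0.0984%) in the edgeR fit, beside 1541 (8.92%) at an unadjusted p under 0.05, and 13 of these 17 carry predicted or numbered symbols. Hnrnph3, a splicing factor, was the only one of the others that is neither a pseudogene nor a ribosomal protein copy. In XX pups it was at 3.98 to 6.25 CPM in Aro5 and 5.26 to 7.41 in controls (-0.19, SE 0.11), and in XY pups at 5.97 to 7.47 CPM in 6 Aro5 and 3.30 to 5.18 in 9 controls (0.65, SE 0.11). The XY groups did not overlap, whereas the XX groups did. The difference of the responses was -0.84 (SE 0.16, adjusted p = 0.00924 by edgeR). The count of 17 was 3 with control and Aro5 pups alone, 34 with DESeq2 and 609 when pups dissected outside the study's time window were left out. Of the 9 XY controls, 8 have libraries of name form A alone and N2-2y has one of each form, which were summed. The 6 XY Aro5 titles carry the low line but a lower-case y, where form A XY control titles have an upper-case Y. They are read here as form B from that letter. The 2 libraries of N2-2y are the same animal, and in CPM from library totals its form A library had Hnrnph3 at 3.95, inside the form A control range of 3.27 to 4.77, and its form B library at 6.48, inside the XY Aro5 range of 6.05 to 7.39. Over the 17 genes, the form B library of this control lay outside the range of the 9 form A control libraries in 11 and inside the XY Aro5 range in 10. For Ahr the form A and form B libraries of N2-2y were alike, at 3.64 and 3.49 CPM, but this is a single animal. Among XX controls Ahr was higher in form B than in form A by 0.57 (log2, adjusted p = 0.380 by edgeR). The N2-2y libraries were at 15.2 and 15.9 CPM for Pcdhb19, but at 210 and 149 for Matr3 and at 101 and 46.1 for ND6. With form B represented by a single XY control library, the form and the treatment cannot be fully told apart in XY pups.

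Several genes described above differed between the sexes only before adjustment. Ahr in XX pups was -0.33 (SE 0.29) and in XY pups 1.21 (SE 0.32), where it was at 1.53 to 8.05 CPM in Aro5 and 0.244 to 4.28 in controls (adjusted p of the sex difference 0.313 by edgeR). Erbb4 was at -0.33 (SE 0.26) in XX and 0.84 (SE 0.26) in XY pups. Pcdhb19 was at -0.37 (SE 0.07) in XX and -0.01 (SE 0.07) in XY pups, and the median over the 17 Pcdhb genes was -0.10 in XX and 0.19 in XY pups. Matr3 was at -0.32 (SE 0.09) in XX and 0.21 (SE 0.12) in XY pups. LOC688430 had lower estimates in both sexes, at -1.69 (SE 0.40) in XX and -1.80 (SE 0.45) in XY pups.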

How the data were processed

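RNA of the dorsal hippocampus was sequenced from TruSeq stranded mRNA libraries. Per the labels and the study's methods, the authors aligned reads with STAR to rat Rnor_6.0 and counted them per gene with featureCounts. Versions and settings for strand and multi-mapping are not given in the sources used here. The deposited values are raw counts per gene and library, with no normalisation. The labels name saline as the CONSC vehicle and a NovaSeq sequencer, whereas the methods name DMSO and a HiSeq.

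From these counts, the libraries of pup N4-3x (and of XY control N2-2y) were summed, leaving 1 sample per pup, and all 23 XX pups were fitted with edgeR 4.0.16 (filterByExpr, TMM, glmQLFit and glmQLFTest, Benjamini-Hochberg adjustment over all genes tested) under R 4.3.3, with CONF and CONSC as 1 control group. The sex difference came from 52 pups in 8 groups of sex and treatment. Comparisons by library name form among XX pups counted the libraries of N4-3x separately. The common biological coefficient of variation was 15.4%. DESeq2 1.42.0, other filters and size factors, each control type, each library name form, time of dissection and leaving out each pup were alternatives. The fit was tested on simulated data. Low-count genes rest on few counts, and their intervals are wide accordingly.

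Named genes were the 12 in each direction with the smallest unadjusted p at a mean of at least 1 CPM, leaving out numbered symbols, plus genes called by any tool, defining and extreme members of 31 lists, the leading sex differences and genes with no overlap. Members and lists were chosen with earlier results of these data known. Several symbols are shared by more than 1 entry, the files give no coordinates, and Rpl8, Rps6 and Rps9 had 0 to 2 counts, so genes with near-identical copies are uncertain. Promoter windows came from RefSeq (GRCr8), and 52 gene symbols of the lists and named genes matched an entry. Values of some single genes are not reported here.

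Pups of a group came from separate litters except XX Aro5 pups of litter 115 and XY Aro5 pups of litter 120, so p-values count these littermates as separate. In the fit of both sexes, every litter of XX Aro5 pups also had XY pups, as did several control litters. The main fit of the sex difference did not model these siblings, and litter as a replicate block is an alternative given below. Pup 117-6x was dissected at 9.50 h, before the study's stated window.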

Additional observations from a re-analysis of the deposited data

Results flagged for a closer look

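Samples were compared with the others of their group by Dixon's test in 300 sets of values (named genes and summed lists), of which 29 had a sample standing apart. Chance alone gives about 1 in 20 such groups at this threshold.

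The control 9-1x stood apart most often. It had the highest CPM of the 10 controls for Dio3 (3.73), Ttr (4260), Enpp2 (208), Adora2a (145), a receptor of striatal neurons, and LOC103691125 (15.3), and the lowest for Sox17 (2.89). Its summed CPM was the highest for thyroid hormone receptors, transport and deiodination (5910), interneuron genes (1100), choroid plexus markers (4790), striatum markers (1640) and cytosolic ribosomal protein genes (22600), and the lowest for synaptic vesicle genes (5430) and hippocampal subfield markers (378). Ttr belongs to both the thyroid and the choroid plexus list. Other controls that stood apart were N4-3x for Mobp (1.39) and Gper1 (4.68), 11-3x for Fos (8.03) and Senp5 (1.28) and, as the lowest, Dsp (1.92), and 13-8x for LOC688867 (1.20).

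Among the 5 Aro5 pups, 117-6x was highest for Mobp (10.1 CPM), Chst11 (97.8), LOC100360843 (0.117) and the summed ionotropic glutamate receptors (1770), and lowest for the summed CAR and PXR pathway (277). Pup 120-3x was highest for Keap1 (73.5), Hes5 (23.2), Uqcr10 (77.5) and the summed endothelial markers (299), and 115-13x was highest for LOC688682 (1.39).

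The Aro5 response differed between XX and XY pups in 17 genes by edgeR's interaction test. The differences (XX minus XY, log2) were positive for Ybx1-ps4 (4.03), LOC102553486 (1.86) and LOC103691125 (0.63). They were negative for LOC100360843 (-4.30), LOC100360781 (-2.66), LOC688867 (-2.53), LOC102547415 (-2.49), LOC102557362 (-2.34), RGD1563834 (-2.29), LOC500371 (-2.14), LOC102551813 (-2.0), Rpl31l4 (-1.89), LOC100360508 (-1.84), LOC688682 (-1.82), RGD1559821 (-1.45), Rps27l3 (-1.18) and Hnrnph3 (-0.84). XY control N2-2y has a library of each name form, and for 11 of these 17 genes its form B library lay outside the range of the 9 form A control libraries and for 10 inside the range of the XY Aro5 pups. With 1 such library, form and treatment cannot be fully told apart.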

How the results depend on the processing

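The count of 0 genes between Aro5 and control XX pups held in 26 of 28 alternative settings and was 1 with DESeq2 on these 15 pups and 119 against form A controls. Of 3192 log2 fold changes of named genes under alternatives, 72 had the other sign, 16 passed the threshold (15 against form A controls) and 0 of the named genes was past it with all controls. In 19 the sign changed by more than the standard error of the estimate or from an unadjusted p under 0.05. Leaving out single pups moved Dio3 between -0.94 and 0.38. With CONF controls alone Klf9 was -0.20. With CONSC controls alone Ahr was 0.01, Dio2 0.24, Sox6 0.10, Rorb 0.16 and Cux2 0.06. With form A controls alone Dio2 was 0.23, Ryr2 0.14, Pecam1 0.11, Rorb 0.14 and Cux2 0.18. With form B controls alone Thra was -0.04, Hr -0.07, Klf9 -0.27, Kcnj10 -0.06, Prdx1 0.02, ND6 0.11 and Rps4x 0.10. The cause was not tested.

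The 17 sex differences became 34 with DESeq2, 609 within the time window, 3 with control and Aro5 pups alone, 4 where every pup had at least 10 counts, and 8 to 25 when single pups were left out. The form difference became 828 with DESeq2 and 1049 without the form A library of N4-3x. Genes with no overlap became 3 without TMM and 12 to 26 without single Aro5 pups.

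Litter as a replicate block gave 19 sex differences. It could not be fitted for XX pups alone, where only litter 115 has 2 pups. Depth limited the genes under 1 CPM, most of whose intervals exceeded 1.5-fold.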
